A study of Rattus norvegicus with 20 samples.

Results

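The 8 mature microRNAs described here are both arms of 4 precursors on the rat X chromosome: miR-742, miR-743a, miR-743b and miR-883. They were taken by name from the array annotation, whatever their signal, and are 8 of the 677 rat miRNAs on the array. The array is a 1-colour Agilent miRNA array, on which Cy3-labelled RNA binds printed probes, and it was hybridised with RNA of male germ cells from Sprague-Dawley rats. The study asked whether chronic cyclophosphamide, an alkylating anticancer drug, alters miRNAs in meiotic and haploid germ cells. There were 4 groups of 5 arrays: round spermatids of cyclophosphamide rats, round spermatids of saline rats, pachytene spermatocytes of cyclophosphamide rats and pachytene spermatocytes of saline rats. The drug was given by gavage at 6 mg/kg on 6 days of the week for 4 weeks, and control rats were gavaged with saline on the same days. Each array held 100 ng of total RNA from 1 cell fraction of 1 rat. Fractions were separated by sedimentation under gravity (STA-PUT), which enriches a cell type by size and does not purify it; the purity of the fractions and the age of the rats are not given in the sources used here.

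A miRNA precursor folds into a hairpin. Cutting of the hairpin releases a duplex of a 5p and a 3p arm, of which usually one is kept in an Argonaute protein and guides it to target RNAs, while the other is mostly lost. Pairing to targets rests above all on the seed, bases 2 to 8 of the mature strand. These precursors belong to the miR-506 family region, a fast-evolving group of X-linked miRNAs expressed mainly in the testis. Pachytene spermatocytes are in meiotic prophase, when the X chromosome is largely silenced, and in mice many miRNAs of this region are nonetheless detected at that stage. Meiosis yields round spermatids, which are haploid.

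The mature sequences are shown because they tell which arms are near copies of each other and because the seeds decide which miRNAs could share targets. They are RefSeq's on assembly GRCr8, written 5′ to 3′ with the seed in capitals.
miR-742-3p: gAAAGCCAccauguuggguaaa
miR-743a-3p: gAAAGACGccaaacuggguaga
miR-743b-3p: gAAAGACAccauacugaauaga
miR-883-3p: uAACUGCAacaucucucaguau
miR-742-5p: uACUCACAugguugcuaauca
miR-743a-5p: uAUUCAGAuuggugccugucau
miR-743b-5p: uGUUCAGAcugguguccaucau
miR-883-5p: uGCUGAGAgaaguagcaguuacu
All 8 lie on the minus strand of chromosome X, miR-742-3p at chrX:150451582-150451603, miR-743a-3p at chrX:150444098-150444119, miR-743b-3p at chrX:150444588-150444609 and miR-883-3p at chrX:150451972-150451993. The Mir743a and Mir743b genes are 414 bases apart, Mir743b and Mir742 6917 bases, and Mir742 and Mir883 313 bases. The precursors therefore lie as 2 close pairs, miR-743a with miR-743b and miR-742 with miR-883. Hairpins of the miR-742 and miR-883 precursors are shown because their arms differ most in the results. The 2 mature arms are in capitals, the 5p arm first.
Mir742: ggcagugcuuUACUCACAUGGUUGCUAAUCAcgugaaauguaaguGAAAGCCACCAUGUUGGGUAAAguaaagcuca
Mir883: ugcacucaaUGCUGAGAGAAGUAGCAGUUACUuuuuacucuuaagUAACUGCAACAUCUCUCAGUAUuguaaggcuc

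No 2 of the 8 share a seed. The 3p arms of miR-743a and miR-743b are equal at 18 of 22 bases and differ in the seed by 1 base, G8A, counted from 1 at the 5′ end with the miR-743a base first. The 3p arm of miR-742 differs in the seed from that of miR-743b by C6A alone, with the miR-742 base first, and the 2 are equal at 16 of 22 bases. The 5p arms of miR-743a and miR-743b are equal at 17 of 22 bases, with A2G as the only seed difference. The arms of miR-883 are further off: its 3p arm is equal to the other 3p arms at 5 to 9 of 22 bases. One seed is shared with another miRNA on the array: miR-743a-5p has the seed of miR-871-5p, an arm from the same X-linked region that was not among the miRNAs tested. Whether probes of the near copies also bind each other's miRNA was not tested.

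All 8 miRNAs were detected on all 20 arrays, so none passed a filter through 1 group only. Values are scaled log2 signals, on which 1 unit is a 2-fold change. Each miRNA was read from its brightest probe, and probes differ in brightness, so signals of different miRNAs are not compared with each other as amounts. Between 181 and 281 miRNAs were detected per array, and no spot was saturated. RNA of spermatocytes and spermatids was not spread evenly over the 3 slides, each of which was scanned once: slide 3 held round spermatids only, 1 from a cyclophosphamide and 3 from saline rats. The labels give each array of a group its own rat, so the spread is that between rats; 2 cyclophosphamide pachytene arrays carry rat number 16 with different years and were taken as 2 rats. A miRNA was called changed where limma's adjusted p, over the 217 miRNAs tested, was under 0.05.

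Marker miRNAs of other cells moved with cell type. The germ cell miRNAs miR-34b, miR-34c and miR-449a had 6 arms on the array, of which 6 were detected on every pachytene array and 5 on every round spermatid array. Of 14 arms known from muscle, mesenchyme and endothelium, 9 were tested. In round spermatids 6 of them rose and 1 fell in cyclophosphamide rats, with a median log2 difference of 0.80 from pachytene spermatocytes. In saline rats 7 rose and 0 fell, with a median of 0.86. The list was not uniform, with a lowest value of −0.83 in cyclophosphamide and −0.73 in saline rats. Its miR-126a-5p was detected on 5 cyclophosphamide and 3 saline pachytene arrays, against 0 and 1 round spermatid arrays. In the same order miR-143-5p was detected on 0 and 2 pachytene arrays, against 5 and 5 round spermatid arrays. Each was tested through the cell type where it was detected, so its direction partly follows from the filter. The summed scaled signal of the 14 arms was 2079 to 3917 in round spermatids against 648 to 1110 in pachytene spermatocytes of cyclophosphamide rats. In saline rats it was 2485 to 3740 in round spermatids against 802 to 1589 in pachytene spermatocytes. Arms of miR-133a-5p, miR-145-3p and miR-214-5p in this list were detected on 0 of 20 arrays. The blood cell list summed to 230 to 295 over all round spermatid arrays against 165 to 210 over all pachytene arrays. The part of these cells in the differences below was not tested, and in such bulk RNA fewer cells of a type and less RNA per cell cannot be told apart.

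The first comparison set round spermatids against pachytene spermatocytes. The 3p arms of miR-742, miR-743a and miR-743b and the 5p arm of miR-743a fell in round spermatids, in cyclophosphamide and in saline rats. The 5p arms of miR-742 and miR-883 were called higher in both treatments under the scaling used. This direction depended on the scaling, and the call of miR-742-5p also on the probe, as given below. The 5p arm of miR-743b and the 3p arm of miR-883 were not called from their brightest probes, while their second probes were called lower, as given below. So 4 of 8 were lower, 2 higher and 2 not called, in both treatments. Of all 217 miRNAs, 51.6% were called in cyclophosphamide rats (29% higher and 22.6% lower) and 47.5% in saline rats (25.8% higher and 21.7% lower). The 6 calls among the 8 are to be read against these shares. The median log2 difference of the 8 was −0.20 in cyclophosphamide rats, against 0.06 over all tested, and −0.26 in saline rats, against 0.02 over all tested.

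miR-742-3p had log2 signals of 6.88, 7.03, 6.86, 6.69 and 6.94 in round spermatids against 7.28, 7.21, 7.37, 7.45 and 7.42 in pachytene spermatocytes of cyclophosphamide rats. The saline rats had 6.93, 6.31, 6.92, 6.61 and 6.60 in round spermatids against 7.38, 7.13, 7.33, 7.27 and 7.14 in pachytene spermatocytes. Every round spermatid array was below every pachytene array of its treatment, and the lowest single value was that of saline rat 16. Groups that do not overlap were found for 38.7% of all miRNAs in cyclophosphamide and 34.1% in saline rats. The log2 difference was −0.47 ± 0.10 (SE, adjusted p = 0.000859, n = 5 each) in cyclophosphamide rats, a 1.38-fold lower signal. It was −0.58 ± 0.10 (SE, adjusted p = 0.000102, n = 5 each) in saline rats, a 1.49-fold lower signal.

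Its partner from the other side of the hairpin, miR-742-5p, went the other way under the same scaling. Its log2 signals were 6.41, 6.89, 6.57, 6.46 and 6.87 in round spermatids against 6.34, 6.42, 6.31, 6.42 and 6.38 in pachytene spermatocytes of cyclophosphamide rats. In saline rats they were 6.69, 6.38, 6.75, 6.41 and 6.64 in round spermatids against 6.39, 6.36, 6.34, 6.26 and 6.26 in pachytene spermatocytes. The groups overlapped by 1 array in both treatments: the lowest round spermatid array lay within the pachytene range, and the others lay above it. The spread was wider in round spermatids, with an SD of 0.23 against 0.05 in pachytene spermatocytes of cyclophosphamide rats and of 0.17 against 0.06 in saline rats. The log2 difference was 0.26 ± 0.09 (SE, adjusted p = 0.0230) in cyclophosphamide and 0.25 ± 0.09 (SE, adjusted p = 0.0308) in saline rats. The less bright of its 4 probes gave 0.26, 0.08 and −0.11 in cyclophosphamide and 0.17, 0.15 and 0.07 in saline rats. Among these only the 0.26 was called (limma adjusted p = 0.0276, over all probes of the tested miRNAs). The dimmest was at the lowest measurable signal on 4 arrays.

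**Figure D1:**
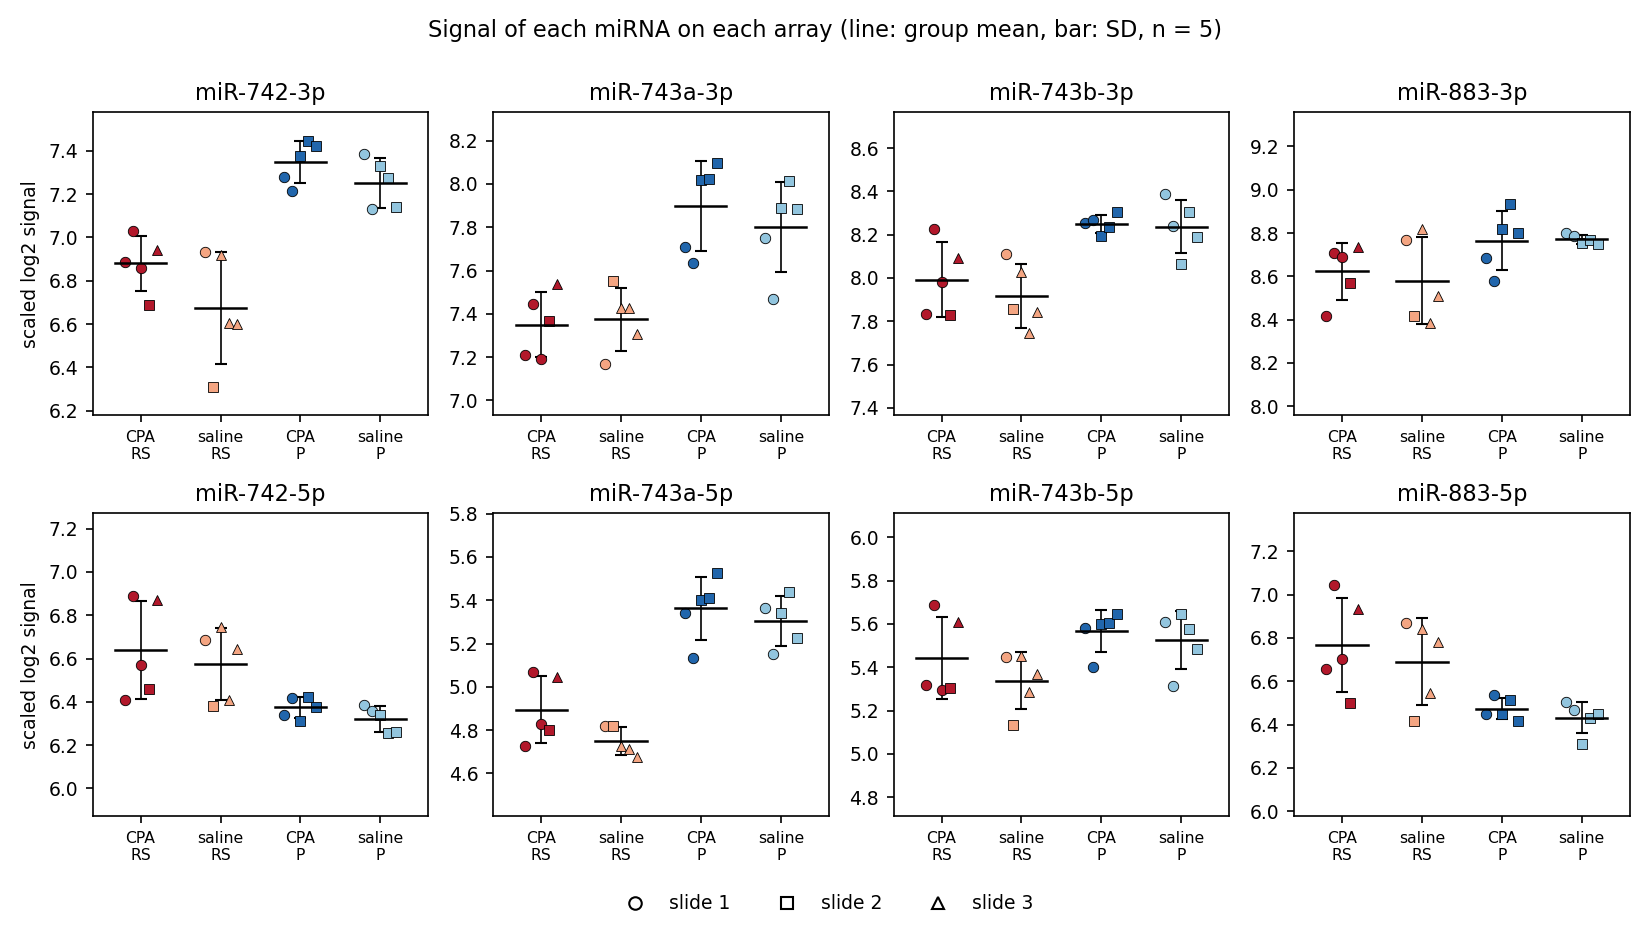
Scaled log2 signal of the 8 miRNAs on each of the 20 arrays, 3p arms above and 5p arms below, with an axis span of 1.4 log2 units in every panel. CPA is cyclophosphamide, RS round spermatids and P pachytene spermatocytes; marker shapes give the slide, lines the group means and bars the SD of 5 arrays. For miR-742-3p and miR-743a-5p all round spermatid arrays lie below all pachytene arrays of their treatment, while miR-742-5p and miR-883-5p lie slightly higher in round spermatids under this scaling, with a wider spread, and under no scaling lie lower.

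Both arms of miR-743a fell. miR-743a-3p had log2 signals of 7.21, 7.44, 7.19, 7.37 and 7.54 in round spermatids against 7.71, 7.63, 8.02, 8.02 and 8.10 in pachytene spermatocytes of cyclophosphamide rats. Saline rats had 7.17, 7.55, 7.42, 7.43 and 7.31 in round spermatids against 7.75, 7.47, 7.89, 8.01 and 7.88 in pachytene spermatocytes. The groups did not overlap in cyclophosphamide rats. In saline rats only pachytene rat 16, at 7.47, lay below the highest round spermatid array. The log2 difference was −0.55 ± 0.11 (SE, adjusted p = 0.000491) in cyclophosphamide and −0.43 ± 0.11 (SE, adjusted p = 0.00412) in saline rats. The second probe of miR-743a-3p was near the lowest measurable signal, at that floor on 10 arrays, and its log2 differences were −0.08 in cyclophosphamide and −0.03 in saline rats. With the mean of both probes the log2 difference was −0.31 in cyclophosphamide rats and −0.23 in saline rats, where it was no longer called (adjusted p = 0.0894).

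miR-743a-5p had log2 signals of 4.73, 5.07, 4.83, 4.80 and 5.05 in round spermatids against 5.34, 5.13, 5.41, 5.40 and 5.53 in pachytene spermatocytes of cyclophosphamide rats. The saline values were 4.82, 4.82, 4.73, 4.71 and 4.68 in round spermatids against 5.37, 5.15, 5.34, 5.44 and 5.22 in pachytene spermatocytes. The groups did not overlap in either treatment, and the saline round spermatids were the tightest group, with an SD of 0.06. The log2 difference was −0.47 ± 0.08 (SE, adjusted p = 6.93e-05) in cyclophosphamide and −0.55 ± 0.08 (SE, adjusted p = 1.14e-05) in saline rats. Of the 8 miRNAs it had the lowest adjusted p in both treatments.

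The arms of miR-743b changed less. miR-743b-3p lay at 7.83 to 8.23 in round spermatids against 8.19 to 8.30 in pachytene spermatocytes of cyclophosphamide rats, and at 7.75 to 8.11 in round spermatids against 8.06 to 8.39 in pachytene spermatocytes of saline rats. Its log2 difference was −0.26 ± 0.08 (SE, adjusted p = 0.0156) in cyclophosphamide and −0.32 ± 0.08 (SE, adjusted p = 0.00386) in saline rats. miR-743b-5p lay at 5.29 to 5.69 in round spermatids against 5.40 to 5.65 in pachytene spermatocytes of cyclophosphamide rats, and at 5.13 to 5.45 in round spermatids against 5.31 to 5.65 in pachytene spermatocytes of saline rats. Its log2 difference of −0.12 ± 0.09 (SE, adjusted p = 0.255) in cyclophosphamide and −0.19 ± 0.09 (SE, adjusted p = 0.0941) in saline rats did not pass. The second probe of miR-743b-5p gave −0.32 in both treatments and was called in both. Its limma adjusted p, over all probes of the tested miRNAs, was 0.0321 in cyclophosphamide and 0.0302 in saline rats.

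In the miR-883 precursor, the 3p arm was not called from its brightest probe and the 5p arm was called higher under the scaling used. miR-883-3p had log2 signals of 8.42, 8.71, 8.69, 8.57 and 8.74 in round spermatids against 8.69, 8.58, 8.82, 8.93 and 8.80 in pachytene spermatocytes of cyclophosphamide rats. Saline rats gave 8.77, 8.42, 8.82, 8.38 and 8.51 in round spermatids against 8.80, 8.79, 8.75, 8.77 and 8.75 in pachytene spermatocytes. Round spermatid arrays lay within and below the pachytene range in cyclophosphamide rats and on both sides of it in saline rats, and the SD was 0.20 in saline round spermatids against 0.02 in saline pachytene spermatocytes. The log2 difference of −0.14 ± 0.09 (SE, adjusted p = 0.195) in cyclophosphamide and −0.19 ± 0.09 (SE, adjusted p = 0.0807) in saline rats was not called. The second probe of miR-883-3p gave −0.33 in cyclophosphamide and −0.30 in saline rats. It was called in both (limma adjusted p = 0.0179 and 0.0293, over all probes of the tested miRNAs).

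miR-883-5p had log2 signals of 6.66, 7.04, 6.70, 6.50 and 6.93 in round spermatids against 6.45, 6.54, 6.45, 6.51 and 6.42 in pachytene spermatocytes of cyclophosphamide rats. The saline values were 6.87, 6.41, 6.84, 6.55 and 6.78 in round spermatids against 6.50, 6.47, 6.31, 6.43 and 6.45 in pachytene spermatocytes. In each treatment 4 of 5 round spermatid arrays were above all pachytene arrays, and the array on slide 2 was not. The log2 difference was 0.29 ± 0.10 (SE, adjusted p = 0.0173) in cyclophosphamide and 0.26 ± 0.10 (SE, adjusted p = 0.0356) in saline rats under this scaling; with no scaling it was below 0 and not called.

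**Figure D2:**
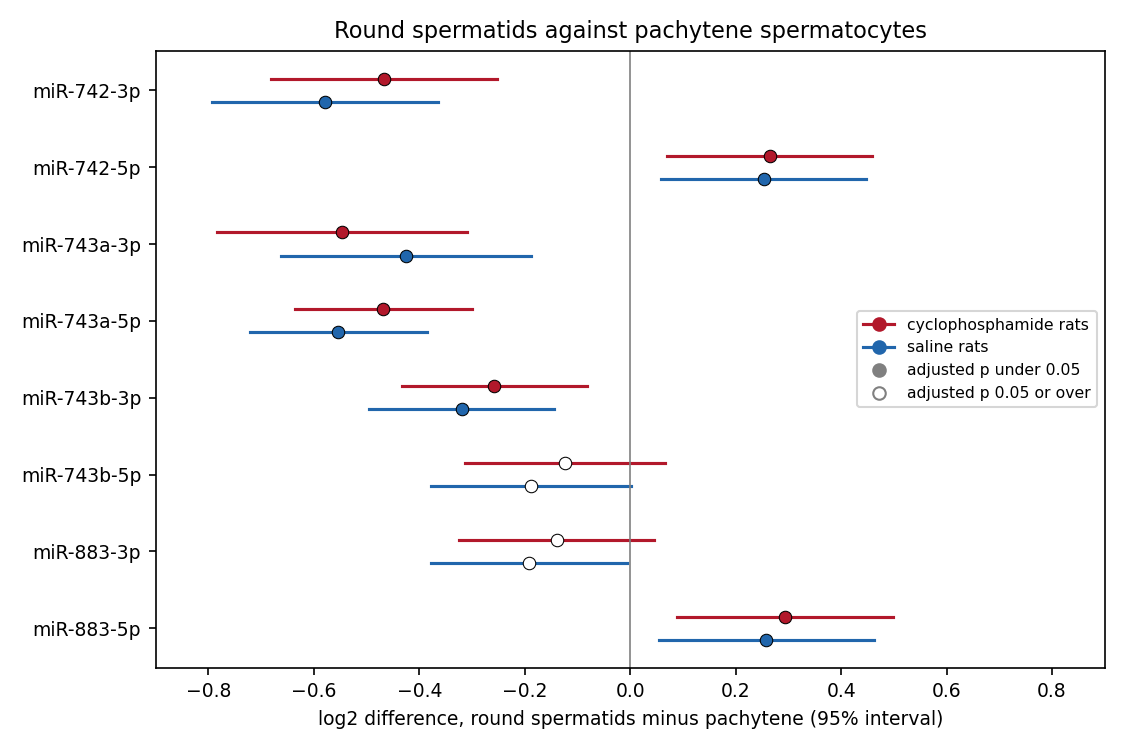
Log2 difference between round spermatids and pachytene spermatocytes for each miRNA, with its 95% interval, in cyclophosphamide rats (above) and saline rats (below); filled points have a limma adjusted p under 0.05. Values run from −0.58 for miR-742-3p in saline rats to 0.29 for miR-883-5p in cyclophosphamide rats under the scaling used; with no scaling between arrays all 8 lie below 0.

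How arrays are put on one scale moves all 8 values together, and it decides the sign of the 2 that were called higher. With no scaling between arrays the median of all 217 miRNAs was itself −0.22 in cyclophosphamide and −0.37 in saline rats, and miR-742-5p had log2 differences of −0.14 in cyclophosphamide and −0.22 in saline rats. With arrays scaled on all gene spots the median was −0.07 in cyclophosphamide and −0.16 in saline rats, and miR-742-5p was at 0.06 in cyclophosphamide and 0.01 in saline rats. Relative to these medians it stayed slightly above the middle of all miRNAs. miR-883-5p was at −0.11 in cyclophosphamide and −0.22 in saline rats with no scaling, and at 0.09 in cyclophosphamide and 0.01 in saline rats with all gene spots. None of these 8 values was called. The falls of miR-742-3p, miR-743a-3p, miR-743a-5p and miR-743b-3p kept their sign and were called under each of the 4 other scalings or signals tried (all gene spots, quantile normalization, no scaling, and the scanner's total gene signal), except miR-743b-3p with no scaling in cyclophosphamide rats (−0.66, adjusted p = 0.0762). With all gene spots the calls over all miRNAs shifted to 38 higher and 75 lower in cyclophosphamide rats, against 63 and 49 as reported, and to 37 higher and 77 lower in saline rats, against 56 and 47 as reported. Quantile normalization gave 48 higher and 65 lower in cyclophosphamide and 42 and 58 in saline rats, and no scaling gave 22 higher and 51 lower in cyclophosphamide and 21 and 67 in saline rats. Total gene signal, which replaces the brightest probe by a signal summed per miRNA, gave 46 higher and 59 lower in saline rats.

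**Figure D3:**
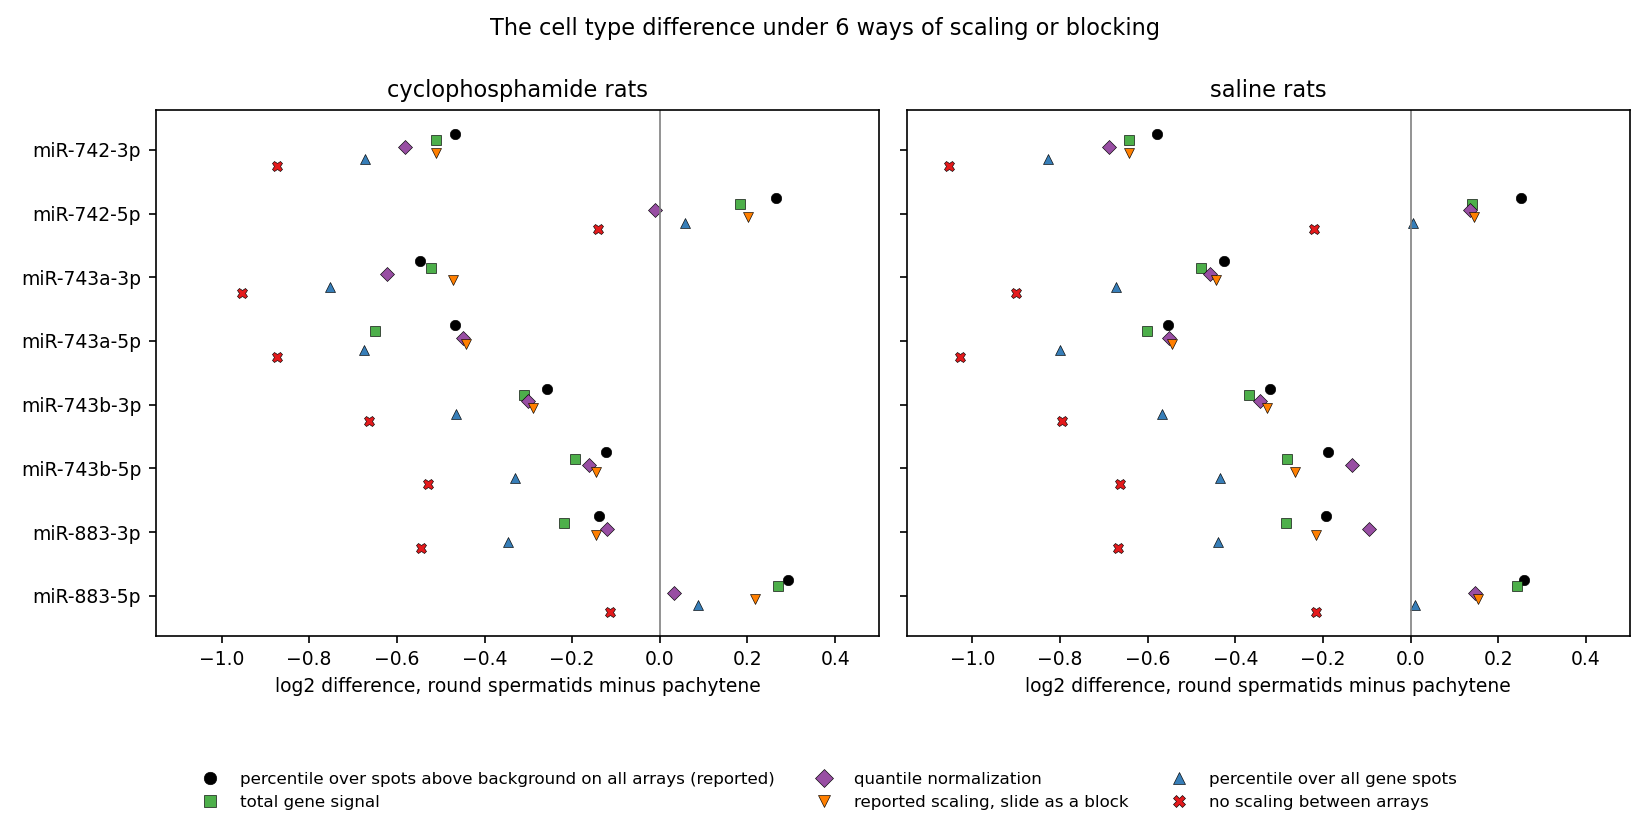
Log2 difference between round spermatids and pachytene spermatocytes for each miRNA under 6 ways of scaling arrays or blocking the slide, cyclophosphamide rats left and saline rats right. Points of miR-742-5p and miR-883-5p lie on both sides of 0, from −0.22 to 0.25 and from −0.22 to 0.26 in saline rats, while those of the other 6 lie below 0 throughout.

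Slide was a second source of spread. With the slide as a block the 4 falls ranged from −0.51 to −0.29 in cyclophosphamide rats and from −0.64 to −0.33 in saline rats, all called. miR-742-5p then had 0.20 (adjusted p = 0.0669) in cyclophosphamide and 0.14 (adjusted p = 0.256) in saline rats, and miR-883-5p had 0.22 (adjusted p = 0.0516) in cyclophosphamide and 0.15 (adjusted p = 0.225) in saline rats, none of them called. Within slide 1 the 4 falls ranged from −0.39 to −0.25 in cyclophosphamide rats (3 against 2 arrays) and from −0.44 to −0.20 in saline rats (1 against 2), and none was called. Within slide 2, with 1 round spermatid array against 3 pachytene arrays in each treatment, they ranged from −0.73 to −0.42 in cyclophosphamide and from −0.94 to −0.33 in saline rats. In cyclophosphamide rats miR-742-5p was at 0.24 on slide 1 and 0.09 on slide 2, and miR-883-5p at 0.31 on slide 1 and 0.04 on slide 2. In saline rats miR-742-5p was at 0.31 on slide 1 and 0.10 on slide 2, and miR-883-5p at 0.38 on slide 1 and 0.02 on slide 2. Without slide 3, an alternative chosen after the data were seen, 4 of the 8 were called in cyclophosphamide rats and 3 of 8 in saline rats, all of them lower.

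The second comparison asked whether the 2 arms of a precursor changed alike. It used the difference of the 3p and the 5p signal within an array, which any common scaling factor leaves untouched. The size of that difference reflects the probes as well as the RNA, so only its change between groups was tested. The 3p arm fell relative to the 5p arm in round spermatids for miR-742 in both treatments and for miR-883 in saline rats. From the brightest probes no arm change was called for miR-743a or miR-743b. The exact permutation test of 5 arrays against 5 can give no p under 0.00794. P-values were adjusted over the 64 tests of arm and stem pairs, of which 16 were called. The pairs share miRNAs and arrays, so these calls are not independent.

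For miR-742, the 3p minus 5p difference was 0.48, 0.14, 0.29, 0.23 and 0.07 in round spermatids against 0.94, 0.79, 1.06, 1.02 and 1.05 in pachytene spermatocytes of cyclophosphamide rats. In saline rats it was 0.25, −0.07, 0.17, 0.20 and −0.04 in round spermatids against 0.997, 0.77, 0.99, 1.02 and 0.88 in pachytene spermatocytes. A wide gap separated the cell types: no round spermatid array exceeded 0.48 and no pachytene array was under 0.77. The mean was 0.24 ± 0.15 in round spermatids against 0.97 ± 0.11 in pachytene spermatocytes of cyclophosphamide rats (SD, n = 5 each), a change of −0.73 (exact permutation p = 0.00794, adjusted p = 0.0317). In saline rats it was 0.10 ± 0.15 in round spermatids against 0.93 ± 0.10 in pachytene spermatocytes (SD, n = 5 each), a change of −0.83 (exact permutation p = 0.00794, adjusted p = 0.0317). After normexp background correction with quantile normalization the change was −0.41 in cyclophosphamide and −0.49 in saline rats. It was not called in either (exact permutation, adjusted p = 0.0508), and 0 of the 64 pair tests passed. With 64 tests even the smallest possible p passes only where enough other pairs also have a low p. Within slide 1 the change was −0.56 in cyclophosphamide and −0.64 in saline rats, and within slide 2 it was −0.82 in cyclophosphamide and −1.03 in saline rats. Taking each of the 2 probes of the 3p arm with each of the 4 of the 5p arm, all 8 changes were below 0 in both treatments, from −0.93 to −0.36 in cyclophosphamide and from −0.90 to −0.65 in saline rats.

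For miR-883, the 3p minus 5p difference was 1.76, 1.66, 1.99, 2.07 and 1.80 in round spermatids against 2.24, 2.04, 2.37, 2.42 and 2.38 in pachytene spermatocytes of cyclophosphamide rats. In saline rats it was 1.90, 2.004, 1.98, 1.84 and 1.73 in round spermatids against 2.30, 2.32, 2.44, 2.34 and 2.30 in pachytene spermatocytes. In saline rats the cell types did not overlap, and in cyclophosphamide rats only pachytene rat 15, at 2.04, reached into the round spermatid range. The change was −0.43 (exact permutation p = 0.0159, adjusted p = 0.0564) in cyclophosphamide rats, not called, and −0.45 (exact permutation p = 0.00794, adjusted p = 0.0317) in saline rats. Of the 25 settings with a test, the change in cyclophosphamide rats was called in 3 and that in saline rats in 24. One of those 3 leaves out that overlapping array, rat 15, and gives −0.49, so it does not test the overlap independently. Within slide 1 it was −0.34 in cyclophosphamide and −0.41 in saline rats, and within slide 2 −0.32 in cyclophosphamide and −0.36 in saline rats. All 4 combinations of probes gave a change below 0, from −0.63 to −0.39 in cyclophosphamide and from −0.66 to −0.45 in saline rats.

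From the brightest probes, the arms of miR-743a and miR-743b changed relative to each other by less, and neither change was called. The change of the 3p minus 5p difference in miR-743a was −0.08 in cyclophosphamide and 0.13 in saline rats (adjusted p = 0.420 in both, exact permutation test). In miR-743b it was −0.13 in both treatments (adjusted p = 0.152 in cyclophosphamide and 0.429 in saline rats, exact permutation test). The sign in miR-743a depended on the probes. In cyclophosphamide rats the brightest 3p probe gave a change of 0.09 with the other 5p probe. With the mean over all probes the change in miR-743a was 0.24 in cyclophosphamide and 0.32 in saline rats. It was then called in both (exact permutation, adjusted p = 0.0299 in both). In cyclophosphamide rats this sign was the opposite of that from the brightest probes.

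Among the 15 precursors with both arms detected on all 20 arrays, the median size of the arm change was 0.43 in cyclophosphamide and 0.44 in saline rats. By size miR-742 was the 4th in both treatments, and miR-883 the 8th in cyclophosphamide and the 7th in saline rats. The largest change was that of miR-652, at −2.04 in cyclophosphamide and −1.70 in saline rats. One other precursor of the X-linked region could be read this way, miR-471, with −0.38 in cyclophosphamide and −0.36 in saline rats. A change of this size between arms was therefore not particular to miR-742 or miR-883 on these arrays.

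**Figure D4:**
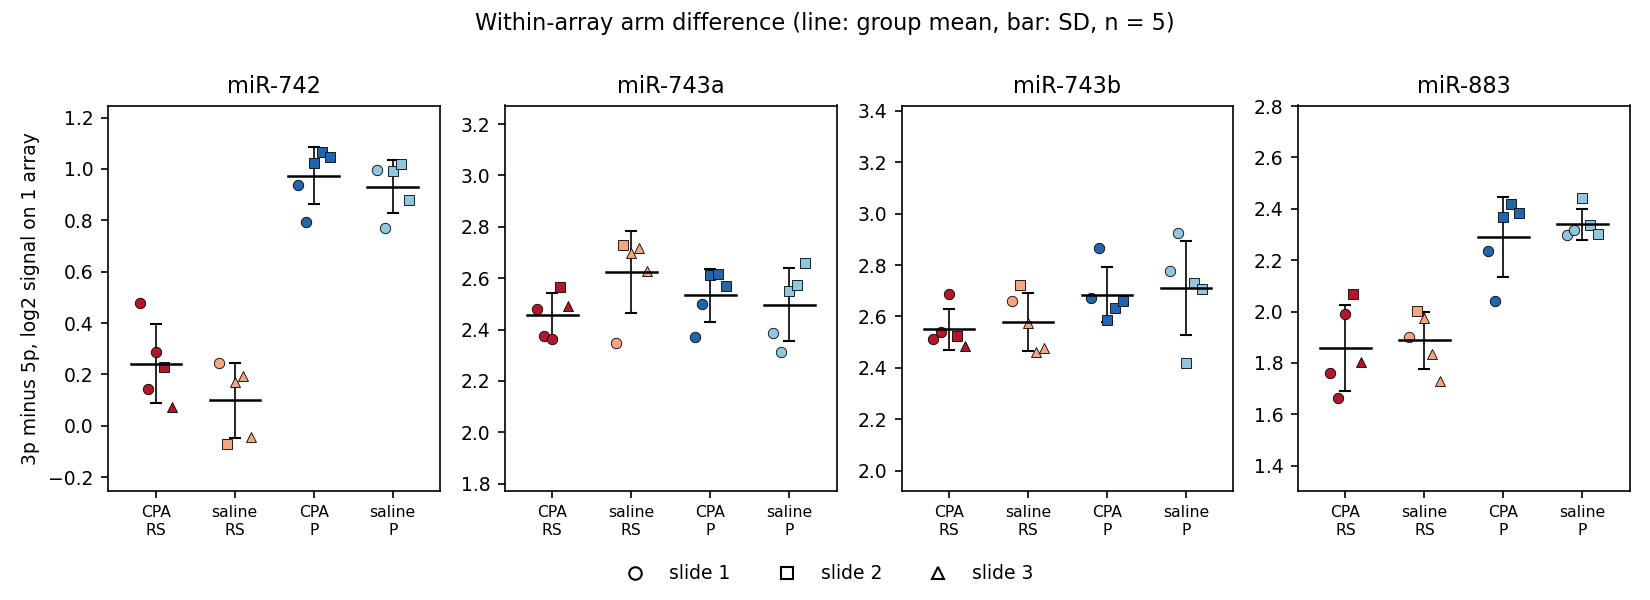
Log2 signal of the 3p arm minus that of the 5p arm on each array for the 4 precursors, with an axis span of 1.5 log2 units in every panel; CPA is cyclophosphamide, RS round spermatids and P pachytene spermatocytes, lines are group means, bars SD of 5 arrays and marker shapes the slide. In miR-742 no round spermatid array exceeds 0.48 and no pachytene array is under 0.77, while in miR-743a and miR-743b the cell types overlap.

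The third comparison set the same arm of different precursors against each other. Between miR-742-5p and miR-883-5p no change was called: the difference between them moved by 0.03 in cyclophosphamide and 0.01 in saline rats between the cell types (adjusted p = 0.773 in cyclophosphamide and 0.941 in saline rats, exact permutation test). Both moved up against miR-743a-5p, miR-883-5p by 0.76 in cyclophosphamide and 0.81 in saline rats, with adjusted p = 0.0317 in both (exact permutation test). For miR-742-5p the sign is turned because it is subtracted: miR-743a-5p minus miR-742-5p moved by −0.73 in cyclophosphamide and −0.81 in saline rats, with the same adjusted p. Against miR-743b-5p, miR-883-5p moved up by 0.42 in cyclophosphamide and 0.45 in saline rats. miR-743b-5p and miR-743a-5p, equal at 17 of 22 bases and from genes 414 bases apart, also moved apart, by 0.34 in cyclophosphamide and 0.37 in saline rats, again with adjusted p = 0.0317. In each of these called pairs the cell types did not overlap. The change of miR-743b-5p against miR-743a-5p was called in 24 of 25 settings in cyclophosphamide rats and in 17 of 25 in saline rats. In saline rats it was 0.43 within slide 1 and 0.08 within slide 2. In cyclophosphamide rats it was 0.30 within slide 1 and 0.33 within slide 2. The second probe of miR-743b-5p fell further than the brightest, as given above, and was not tested in this pair by itself.

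The 3p arms differed less from each other. miR-883-3p moved up against miR-742-3p by 0.33 in cyclophosphamide and 0.39 in saline rats (adjusted p = 0.0317 in both, exact permutation test), so that miR-742 fell further. Against miR-743a-3p, miR-883-3p moved by 0.41 in cyclophosphamide rats (adjusted p = 0.0317, exact permutation test) and by 0.23 in saline rats (adjusted p = 0.429). The change in cyclophosphamide rats depended on the processing. It was called in 23 of the 25 settings with a test and ranged down to 0.08 (highest adjusted p = 0.795, exact permutation test). miR-743a-3p and miR-742-3p differed in their change by −0.08 in cyclophosphamide and 0.15 in saline rats, neither called. miR-743b-3p and miR-743a-3p, the pair with 18 of 22 equal bases, differed by 0.29 in cyclophosphamide (adjusted p = 0.169) and 0.11 in saline rats (adjusted p = 0.773). Of the 12 same-arm pairs, 7 were called in cyclophosphamide and 6 in saline rats. Each miRNA enters several of these pairs, so their calls are not independent. How often same-arm pairs of other miRNAs would be called was not tested. Calls between cell types were common among single miRNAs, at 51.6% of all 217 in cyclophosphamide and 47.5% in saline rats (limma).

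In the rest of the X-linked miR-506 family region, more of the tested miRNAs were called lower in round spermatids than were not called. Of its 19 other miRNAs on the array 15 were tested; 9 fell, 0 rose and 6 were not called in cyclophosphamide rats, where 22.6% of all 217 were called lower, and 8 fell, 0 rose and 7 were not called in saline rats, where 21.7% were. As for all 217, detection on every array of 1 group was enough to be tested. A miRNA that entered through pachytene arrays alone would tend to read as lower in round spermatids. The lowest measurable signal limits the size of such a fall. In round spermatids miR-201-3p had a drug difference of exactly 0, as values at that floor give. How many of the 15 entered in this way was not counted. The highest log2 difference in the region was 0.07 in cyclophosphamide and 0.04 in saline rats. Their median log2 difference was −0.48 in cyclophosphamide and −0.47 in saline rats, against −0.20 in cyclophosphamide and −0.26 in saline rats for the 8 miRNAs described here. The largest falls were those of miR-201-5p, with −2.07 ± 0.24 (SE, adjusted p = 8.72e-07) in cyclophosphamide and −1.89 ± 0.24 (SE, adjusted p = 2.96e-06) in saline rats, and of miR-547-3p, with −1.81 ± 0.18 in cyclophosphamide and −1.73 ± 0.18 in saline rats. The largest fall among the 8, −0.58 for miR-742-3p in saline rats, was smaller than either of these. Whether the 8 differ from the rest of the region was not tested.

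By the profile of their 4 group means, miR-742-3p, miR-743a-3p and miR-743a-5p had X-linked miRNAs of the same region among their 3 nearest neighbours outside the 8, and the other 5 had none. The 3 nearest to miR-742-3p were miR-760-3p, miR-463-3p and miR-134-5p, at Euclidean distances of 0.07, 0.10 and 0.11 log2 units after centring. Of these only miR-463-3p, from the same region, also followed miR-742-3p from array to array, with r = 0.87 over 20 deviations from the group means. miR-743a-3p lay nearest to miR-103-3p, miR-741-3p and miR-547-5p, and miR-743a-5p nearest to miR-547-5p, miR-463-3p and miR-103-3p. miR-742-5p lay nearest to miR-193-3p, miR-338-5p and miR-30e-3p, and miR-883-5p to miR-193-3p, miR-19a-3p and miR-338-5p. miR-743b-3p had miR-101b-3p, miR-92a-3p and miR-20a-5p as neighbours, miR-743b-5p had miR-30c-5p, miR-872-5p and miR-21-5p, and miR-883-3p had miR-21-5p, miR-30c-5p and miR-20a-3p. The X-linked neighbours of the miR-743a arms had r from 0.53 to 0.65. Some neighbours outside the region also followed from array to array. This r was 0.80 for miR-19a-3p with miR-883-5p, 0.68 for miR-30e-3p with miR-742-5p and 0.63 for miR-20a-5p with miR-743b-3p. The remaining neighbours outside the region had lower r, down to −0.30 for miR-338-5p with miR-883-5p. With 4 points per profile, small distances are common and are given as a description.

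Within groups most of the 8 varied together from array to array, and miR-743a-3p did so less. Over the 28 pairs among them the correlation of deviations from the group means had a median of 0.60, from −0.13 to 0.90, against 0.00 over the 23005 pairs of all tested miRNAs. miR-743a-3p had r = 0.71 with miR-743a-5p and 0.45 with miR-743b-5p, and between −0.13 and 0.18 with the other 5. The arrays share scaling, slide and rat, so this is a description of these 20 arrays.

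The last comparison concerned the drug. None of the 8 was called between cyclophosphamide and saline rats, in round spermatids or in pachytene spermatocytes, and neither was any of the 217 miRNAs tested (0% in both cell types). Before adjustment limma gave p under 0.05 for 4 of 217 in round spermatids and 1 of 217 in pachytene spermatocytes, none of them among the 8. The log2 differences of the 8 ran from −0.03 to 0.21 in round spermatids and from −0.01 to 0.10 in pachytene spermatocytes.

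The largest was that of miR-742-3p in round spermatids. It averaged 6.88 ± 0.13 in cyclophosphamide rats and 6.67 ± 0.26 in saline rats (SD, n = 5 each), and the values given above overlap. The log2 difference was 0.21 ± 0.10 (SE, adjusted p = 0.810), with a 95% interval from −0.01 to 0.42. miR-743a-5p followed with 0.14 ± 0.08 (SE, adjusted p = 0.810), from 4.89 ± 0.15 in cyclophosphamide and 4.75 ± 0.06 in saline round spermatids (SD, n = 5 each). Over the 8 miRNAs the bounds of the 95% intervals lay between 0.83 and 1.34 times the saline signal in round spermatids and between 0.87 and 1.26 times in pachytene spermatocytes.

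The drug effect was not called different between the cell types either. The difference of the 2 drug effects ran from −0.12 for miR-743a-3p to 0.11 for miR-742-3p, with adjusted p = 1 in limma for all 8, and 0% of all 217 were called; 1 of 217 had an unadjusted p under 0.05. Arm and stem pairs gave 0 called of 32 drug tests, with a lowest adjusted p of 0.221 (exact permutation test). The 2 drug comparisons and the 2 cell type comparisons share arrays, so their values are given side by side and not as independent results.

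**Figure D5:**
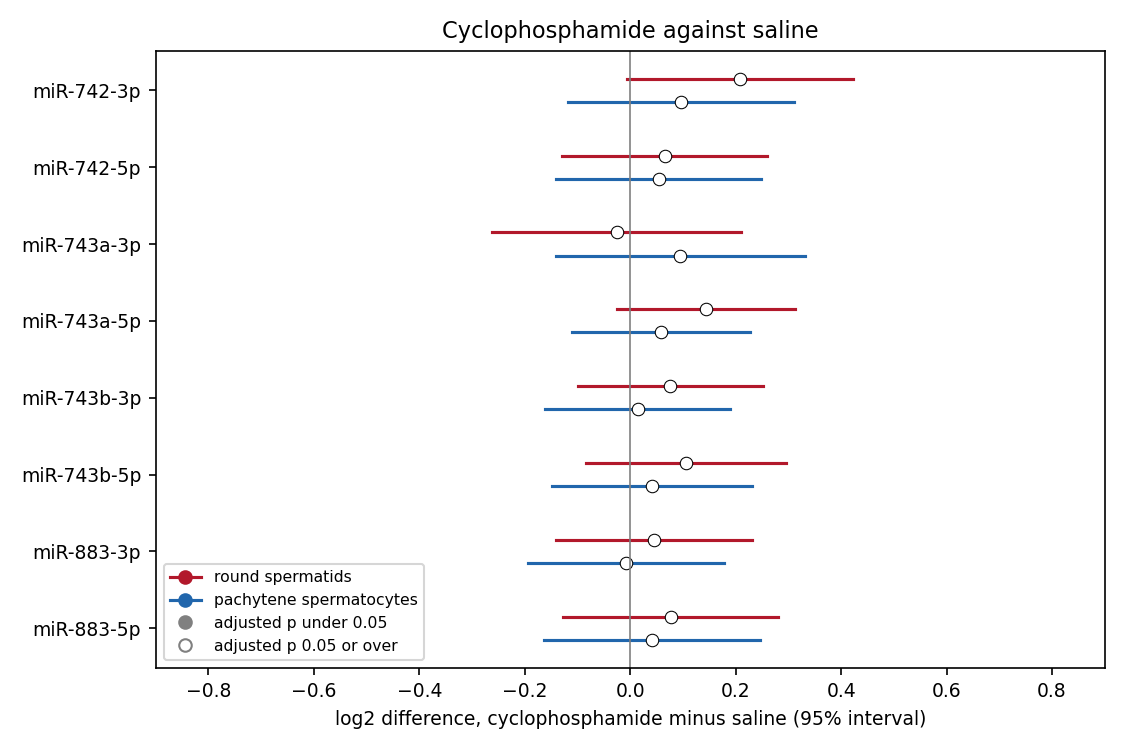
Log2 difference between cyclophosphamide and saline rats for each miRNA, with its 95% interval, in round spermatids (above) and pachytene spermatocytes (below); open points have a limma adjusted p of 0.05 or over. All 16 points are open, and the one farthest from 0 is miR-742-3p in round spermatids, at 0.21.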

How the data were processed

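RNA of 20 germ cell fractions was measured on 1-colour Agilent rat miRNA arrays. Intensity was deposited by the authors as a background-subtracted signal per spot, not scaled between arrays, per the file headers; the scanner software was Feature Extraction from Agilent, version 11.5.1.1 by the submitters' processing notes. The authors' deposited value table holds log2 values centred on a median of 0 per feature; its scale was read from its values, its normalization is not given in the sources used here, and it served as an alternative only. Its 8 rows were matched by name and by the better correlation with the scanner values.

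Each array was divided by the 75th percentile of the 2176 spots well above background on all arrays. Spots flagged as outliers were left out, spots of a probe averaged, values floored at 12.2 and log2 taken; the brightest probe stood for a miRNA. A miRNA entered the test if every array of some group detected it, which left 217 of 677, tested with limma 3.58.1 in R 4.3.3 (4 group means, Benjamini-Hochberg adjustment, threshold 0.05), after the code was tested on simulated data. Pairs of arms or stems were tested with exact two-sided permutation tests in scipy 1.17.1. Alternatives were other scalings, background corrections, probe rules, filters, blocks and left-out arrays. The planned normexp correction used median signals, since the array data as given here held no mean signals. The processed signals of 1 array, from round spermatids of cyclophosphamide rat 14, are rounded to 3 digits. The number of arrays limits the precision.

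The 8 miRNAs and all lists were chosen with earlier results of these data known. All 8 are named; other miRNAs are named as the 3 with the nearest profile, the 2 largest called differences of the X-linked region in each direction, or as markers. miR-511 was left out of that region because RefSeq places it on chromosome 17. miR-652 was named after its value was seen. The lists for spermatogonia, Sertoli cells and blood cells had 3, 3 and 4 tested members. The Sertoli member miR-132-3p was detected on 0 cyclophosphamide and 1 saline pachytene arrays. The spermatogonial member miR-222-3p was detected on 1 cyclophosphamide and 1 saline round spermatid arrays. Each entered the test only through the other cell type, so its direction partly follows from the filter. In round spermatids against pachytene spermatocytes, 0 spermatogonial members rose and 2 fell in cyclophosphamide rats, against 0 and 3 in saline rats; 1 Sertoli member rose and 1 fell in both; and 2 blood cell members rose in cyclophosphamide and 1 in saline rats, with 0 falling.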

Additional observations from a re-analysis of the deposited data

Results flagged for a closer look

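One of 32 groups of 5 values (8 miRNAs in 4 groups) held an array far from the others. miR-743b-5p in pachytene spermatocytes of cyclophosphamide rat 15 had a log2 signal of 5.40, against 5.58 for the next array and 5.65 for the highest. The gap was 0.738 of the whole range, above the critical value of the Dixon test for 5 values. Chance flags about 1 in 20 such groups.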

How the results depend on the processing

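A result counts here as reversed only where its value was called before or after the sign changed, a definition chosen after the values were seen; 37, 30 and 42 uncalled drug values of the 8 miRNAs (pachytene, round spermatids, and their difference) and 52 and 29 of the pairs also changed sign. In round spermatids against pachytene spermatocytes, miR-742-5p and miR-883-5p turned below 0: without scaling to −0.14 and −0.11 in cyclophosphamide and −0.22 and −0.22 in saline rats, without scaling and with slide as a block to −0.25 and −0.23 in cyclophosphamide and −0.48 and −0.47 in saline rats, and for miR-742-5p to −0.010 with quantile normalization in cyclophosphamide rats. Without scaling 73 of 217 miRNAs and 3 of the 8 were called in cyclophosphamide rats, against 112 and 6 as reported; adding the slide block gave 67 and 3 in cyclophosphamide and 66 over all miRNAs in saline rats, against 103. Within slide 1, from fewer arrays, 72 miRNAs were called in cyclophosphamide and 54 in saline rats, 0 of the 8 in either. Leaving out slide 3 left 3 of the 8 in saline rats. For the drug, within slide 2, where 1 round spermatid array meets 1, 31 miRNAs were called in round spermatids and 28 for the difference of drug effects, and within slide 3 1 miRNA, none of them among the 8; these lone arrays are assumed to vary like the others. With the mean over all probes miR-743a-3p moved up against miR-743a-5p by 0.24 in cyclophosphamide and 0.32 in saline rats. Against miR-742-3p it moved up by 0.25 in cyclophosphamide rats. The dim probe of miR-743a-3p shares in that mean. After normexp with quantile normalization 0 of 64 pair tests passed: the changes of miR-742 were −0.41 in cyclophosphamide and −0.49 in saline rats, with a lowest adjusted p of 0.0508 by the exact permutation test. The cause of these shifts was not tested beyond what is said of arrays and probes.

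Leaving out 1 array at a time, 98 to 114 miRNAs and 4 to 6 of the 8 were called in cyclophosphamide rats, 95 to 113 and 4 to 7 in saline rats, 0 for the drug in either cell type or for the difference of its effects, and 14 to 16 of 64 pairs. The 4 falls were called in all 10 such fits of each treatment. miR-742-5p lost its call without saline pachytene rat 26 (0.24) or 28 (0.24), without saline round spermatid rat 15 (0.22), 17 (0.21) or 28 (0.24), and without the earlier cyclophosphamide pachytene rat 16 (0.25) or cyclophosphamide round spermatid rat 15 (0.20) or 26 (0.21). miR-883-5p lost it without saline pachytene rat 25 (0.23), 26 (0.26) or 28 (0.26), saline round spermatid rat 15 (0.21), 17 (0.22) or 28 (0.24), or cyclophosphamide round spermatid rat 15 (0.22). In saline rats miR-743b-5p was called without pachytene rat 16 (−0.24), and miR-883-3p without round spermatid rat 15 (−0.24) or 17 (−0.25). With 4 arrays in a group, where the smallest possible permutation p is larger, some stem pairs missed the threshold (adjusted p up to 0.0598, exact permutation): miR-743b-5p against miR-742-5p (−0.44 to −0.36 in cyclophosphamide, −0.50 to −0.41 in saline rats), miR-883-5p against miR-743b-5p (0.38 to 0.47 in cyclophosphamide, 0.39 to 0.51 in saline rats), miR-883-3p against miR-742-3p in cyclophosphamide rats (0.29 to 0.38), and miR-743b-5p (0.33 to 0.43) and miR-883-5p (0.77 to 0.90) against miR-743a-5p in saline rats.

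Rat numbers recur across treatments, and 4 pairs of fractions share a full label and a treatment. Their deviations correlated with r of 0.12, 0.07, 0.16 and −0.29. Cyclophosphamide round spermatid rat 16, labelled without a year, correlated with the 2 pachytene rats numbered 16 at r of 0.21 for the earlier and −0.11 for the later. The numbers were not taken as pairs. With the replicate number as a block, 113 miRNAs were called in cyclophosphamide and 105 in saline rats, 6 of the 8 in each, and 0 for the drug. The authors' deposited table, fitted in the same way, gave −0.65 in cyclophosphamide and −0.75 in saline rats for miR-742-3p, and called neither miR-742-5p nor miR-883-5p. The number of arrays limits the precision. All 8 miRNAs were detected on every array, and whether dim signal also limits the precision was not tested.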
